A study of Mus musculus with 5 samples.

Results

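Pattern recognition genes encode the receptors that detect microbial molecules and cell damage, and inflammasome genes encode the complexes that answer by activating inflammatory caspases. The 42 genes described here were taken by gene symbol, and all 42 were found among the 52382 genes of the deposited table. They were followed in colon over 5 libraries of a mouse model of colon cancer driven by colitis. Azoxymethane (AOM), a mutagen, is combined there with dextran sulfate sodium (DSS), which is given in drinking water and injures the colonic epithelium.

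The mice were male wild-type C57BL/6 animals aged 8 to 12 weeks at the start. The W0 library came from untreated control mice given distilled water, and the W2 library is labelled as AOM alone. The libraries of W5, W8 and W11 are labelled as AOM and DSS, and the number is the week of sampling. AOM was injected on day 1 and day 8 at 8.5 mg per kg, and DSS was given at 1.5% in cycles separated by plain water. The control is described both as sampled ahead of treatment and as killed together with the treated mice, so its age at sampling is not known. From each group 3 mice were selected, and whether their tissue was pooled is not given in the sources used here. Each week has 1 library, so no difference below has a replicate check and none is given a p-value.

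RNA came from pieces of whole colon, although the labels also name intestinal epithelial cells as the cell type. The libraries held between 13389184 and 20379429 counted reads. The epithelial markers summed to between 17540 and 25743 counts per 1000000 counted reads (CPM), but the smooth muscle gene Acta2 also lay between 684.9 and 1737 CPM, so the RNA was not of epithelial cells alone. Of the defining markers listed for each cell type, Elf3 (epithelium), Ms4a1 (B cell) and Synm (smooth muscle) are listed at 0 in all 5 libraries. In such bulk tissue, fewer cells of a type and less RNA per cell cannot be told apart.

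Toll-like receptors at the cell surface bind bacterial lipids and proteins, and those in endosomes bind nucleic acids. Most of them signal through the adaptor MyD88 and the IRAK kinases to NF-kB. NOD-like receptors and AIM2 act in the cytosol. Several of these sensors assemble with the adaptor ASC and caspase-1 into inflammasomes, which mature the cytokines interleukin-1 beta and interleukin-18 and cleave gasdermin D to open membrane pores. The colon lives beside a dense microbiota, and both its epithelium and its macrophages use these receptors.

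Differences are given as log2(CPM + 1) of the first library less that of the second. This scale understates the change of low genes. A gene is said to have risen, fallen or changed when it differed by 2-fold or more on it. Ratios of CPM come with exact conditional 95% intervals from the read counts, which cover counting error only. Of the 42 genes, 18 changed against W0 in at least 1 week. A mean of at least 1 CPM over the libraries was reached by 40 of the 42, and by 14720 genes in all, which are the background for every percentage below.

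Promoter windows of 4 of the changed genes are shown because these genes stand at the ends of the range described below: Clec7a and Tlr2 had the largest rises, Casp4 rose at W11, and Nlrp6 had the largest fall. Each window runs from 250 bases before to 50 bases after the gene's start, is printed 5′ to 3′ on the gene's strand, and was copied from RefSeq, build GRCm38.p6. Capitals mark the kappaB letters, a loose form of the site bound by NF-kB, on either strand: GGG, then any 5 bases, then CC, with overlapping matches joined into 1 stretch.

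Clec7a, chr6:129472730-129473029, minus strand: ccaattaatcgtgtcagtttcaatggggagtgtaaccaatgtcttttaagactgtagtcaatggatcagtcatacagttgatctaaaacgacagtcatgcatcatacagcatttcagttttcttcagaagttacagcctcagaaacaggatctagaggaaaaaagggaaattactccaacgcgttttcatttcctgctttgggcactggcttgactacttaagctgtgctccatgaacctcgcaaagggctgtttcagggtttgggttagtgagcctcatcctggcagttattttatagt

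Tlr2, chr3:83841559-83841858, minus strand: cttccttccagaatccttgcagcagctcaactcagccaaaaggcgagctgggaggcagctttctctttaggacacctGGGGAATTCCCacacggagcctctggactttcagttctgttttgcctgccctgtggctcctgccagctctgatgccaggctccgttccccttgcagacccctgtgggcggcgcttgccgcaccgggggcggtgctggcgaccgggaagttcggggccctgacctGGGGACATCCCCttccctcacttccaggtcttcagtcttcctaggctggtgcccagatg

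Casp4, chr9:5308599-5308898, plus strand: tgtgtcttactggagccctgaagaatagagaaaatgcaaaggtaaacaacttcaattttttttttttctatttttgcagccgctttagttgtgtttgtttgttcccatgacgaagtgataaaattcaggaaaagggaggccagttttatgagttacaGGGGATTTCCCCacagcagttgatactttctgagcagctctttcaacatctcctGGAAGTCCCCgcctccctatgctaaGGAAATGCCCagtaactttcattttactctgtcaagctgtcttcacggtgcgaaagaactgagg

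Nlrp6, chr7:140920652-140920951, plus strand: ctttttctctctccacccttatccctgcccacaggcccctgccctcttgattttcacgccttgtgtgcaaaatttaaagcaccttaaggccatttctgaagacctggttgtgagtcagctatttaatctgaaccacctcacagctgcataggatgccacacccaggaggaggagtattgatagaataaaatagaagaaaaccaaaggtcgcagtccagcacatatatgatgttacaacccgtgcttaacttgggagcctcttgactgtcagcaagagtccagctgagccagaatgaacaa

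The Tlr2 window held 2 such stretches and the Casp4 window held 3, while the windows of Clec7a and Nlrp6 held 0. Of all 32851 windows in the table, 50.8% held at least 1 stretch, 21.7% at least 2 and 8.21% at least 3. Windows were listed for 15 of the 18 changed genes, 22 windows in all, and 8 genes had the letters in 10 windows. A loose form of the interferon response element, GAAA, then any 2 bases, then GAAA, searched on both strands, was in 0 of the 22 windows and in 3.44% of all windows. A match of letters is a description and does not show a binding site.

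At W2, under AOM alone, none of the 42 genes reached a 2-fold difference in either direction. Among all genes tested, 3.41% were higher and 4.23% were lower than W0. The members ranged between -0.89 (Tlr5) and 0.67 (Ly96) on the log2 scale, leaving aside Card9, which is listed at 0 in W0. Their median was 0.02, against -0.02 over all genes tested.

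At W5, the first library with DSS, 8 of the 42 genes had risen: Tlr2, Tlr7, Tlr8, Tlr13, Nlrp3, Casp1, Ly96 and Clec7a. That is 19.0% of the members, against 6.63% of all genes tested. None had fallen, against 1.87% of all genes. The number of rises depended on the setting. When each gene was set against genes of like GC content, described below, 4 members had risen (Tlr2, Tlr7, Ripk3 and Clec7a). On the deposited length-scaled values 3 had risen. There 1 was added to each value, which damps the differences of low genes. Tlr7, at 0.09 in W0 and 0.37 in W5 on those values, was not called. Of all genes tested, 4.83% had risen in that GC setting and 3.28% on the length-scaled values. The median of the members was 0.35, against 0.11 over all genes tested. The W5 library was the highest of the 5 for 13 of the 42 genes, and for 26.3% of all genes tested.

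At W8, 4 of the 42 genes had risen (Tlr2, Nlrp3, Ripk3 and Clec7a), which is 9.52%, against 7.79% of all genes tested. Tlr5 and Nlrp6 had fallen, 4.76% of the members against 3.85% of all genes. Both shares lay near the background. The median was 0.23, against 0.11 over all genes. The W8 library was the highest of the 5 for 12 members and for 21.3% of all genes tested.

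At W11, Casp4 and Clec7a had risen, which is 4.76% of the members, against 11.3% of all genes tested. A fall was found for 7 members (Tlr1, Nlrp6, Nlrp10, Nlrx1, Nod1, Irak3 and Mavs), 16.7% against 16.9% of all genes, so the number of falls was that of the background. The median was -0.19, against -0.15 over all genes. W11 was the lowest library for 22 of the 42 genes and for 41.4% of all genes tested. With the folds centred on the median of all genes, or with median-of-ratios scaling, 3 members were higher at W11 (Clec7a, Casp4 and Tlr2) and 3 were lower (Nlrp6, Nod1 and Mavs). Of all genes tested, 14.1% were higher and 12.7% lower with centring, and 15.6% and 11.6% with median-of-ratios scaling. Over all changed genes the share of rises at W11 was 52.5% with centring and 57.2% with median-of-ratios scaling, and 40.1% with neither.

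**Figure D1:**
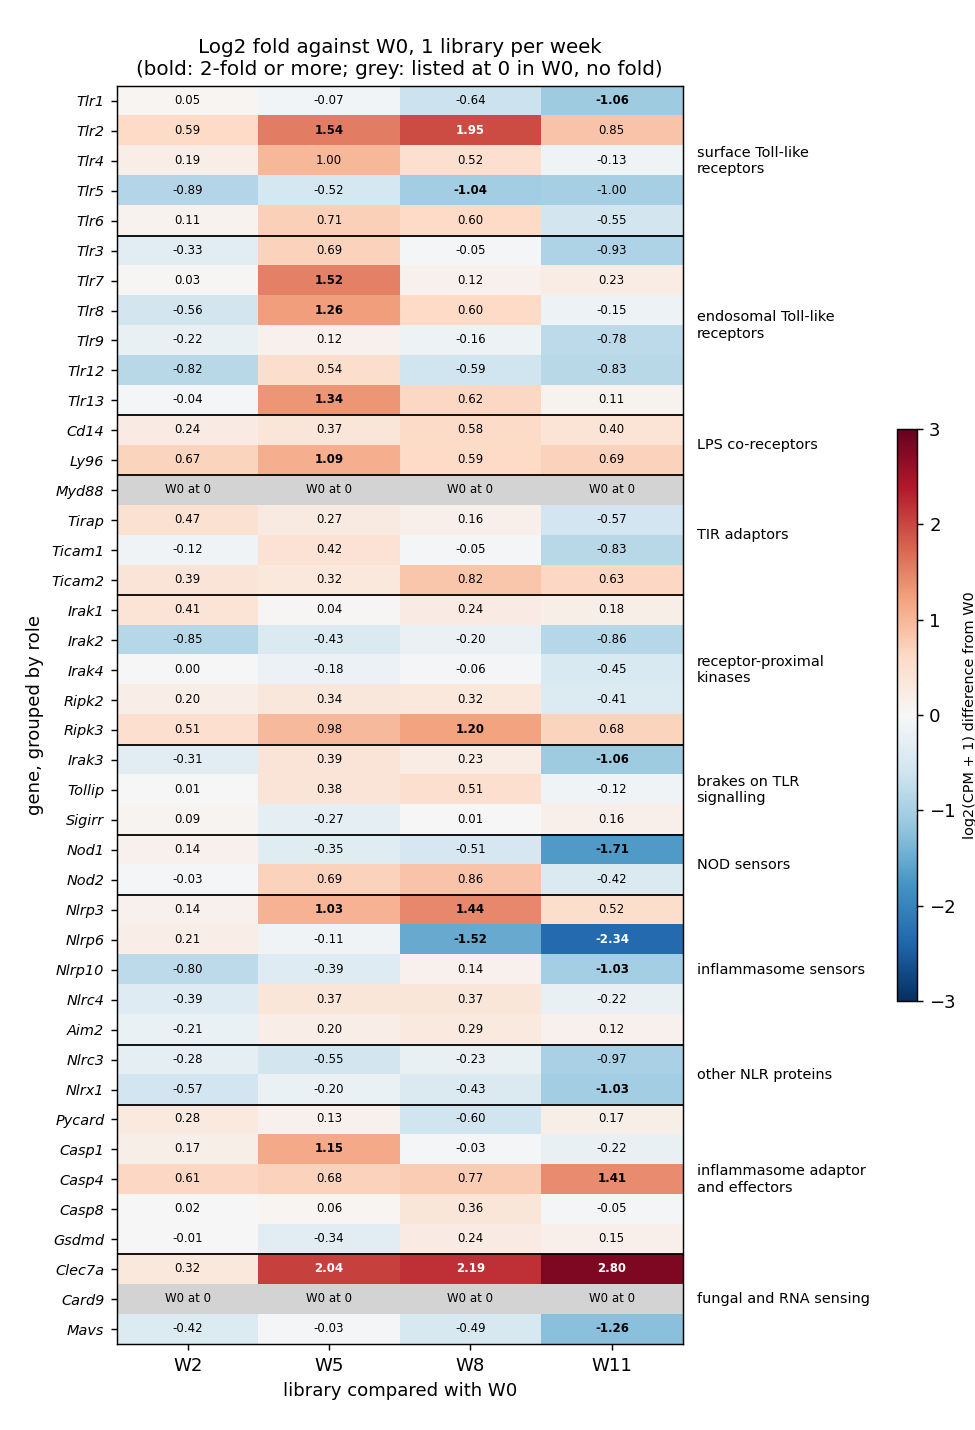
Log2(CPM + 1) difference of each later library from W0 (columns) for the 42 genes (rows, grouped by role), with 1 library per week. Red is higher and blue lower than W0, and bold values reach 2-fold. The W2 column holds no bold value, the endosomal receptors are reddest at W5, and the deepest blue is Nlrp6 at W11 with -2.34.

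Among the surface receptors, Tlr2 rose, while Tlr1 and Tlr5 fell. Tlr2 binds bacterial lipopeptides in a pair with Tlr1 or Tlr6. It was measured at 17.0 CPM in W0, 26.0 in W2, 51.3 in W5, 68.7 in W8 and 31.5 in W11. It was thus highest at W8, where it stood 4.05 times the W0 level (interval 3.50 to 4.69), and at W11 it was lower than at W8 by 1.10 on the log2 scale. The W5 rise of 1.54 was 0.95 when W2 served as the baseline, which ends the call there. The W8 rise was past 2-fold in all 11 alternatives tried. Some alternatives only select members by a mean of at least 1 or at least 5 CPM. They leave the difference of a gene as it was, so they could not end a call, here or in the tallies below.

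Tlr1, its partner for triacylated lipopeptides, went the other way late in the series. Its levels were 75.2 CPM in W0, 77.9 in W2, 71.5 in W5, 47.9 in W8 and 35.5 in W11, so the W0, W2 and W5 libraries were close together and the last 2 were lower. Against W0 it had fallen at W11 by 1.06 on the log2 scale. That call sat near the threshold and was lost in 5 of 11 alternatives, where the smallest difference was -0.84.

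The balance of these partners within a library does not depend on library size. Reads of Tlr2 for each read of Tlr1 numbered 0.226 in W0 (interval 0.195 to 0.261), 0.334 in W2, 0.717 in W5, 1.44 in W8 (1.30 to 1.59) and 0.889 in W11 (0.783 to 1.01). The ratio was thus highest at W8. On the RPKM scale explained below, the ratio was 0.462 in W0, 0.683 in W2, 1.46 in W5, 2.94 in W8 and 1.81 in W11. Scaled instead by the exonic bases of both genes in the GENCODE M21 annotation, the ratio was 0.251 in W0, 0.371 in W2, 0.796 in W5, 1.59 in W8 and 0.987 in W11. Tlr2 thus exceeded Tlr1 on both scales only at W8, and at W5 and W11 the order of the pair depended on the lengths used. Tlr6, the partner for diacylated lipopeptides, stayed between 1.27 and 4.42 CPM and did not differ 2-fold from W0, but at W11 it was lower than at W8 by 1.15 on the log2 scale.

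Tlr4 recognises lipopolysaccharide and Tlr5 recognises flagellin. Tlr4 was measured at 20.8 CPM in W0, 23.8 in W2, 42.4 in W5, 30.1 in W8 and 18.9 in W11, and its W5 difference ended just under 2-fold. Tlr5 was low throughout, at 5.66 CPM in W0, 2.60 in W2, 3.63 in W5, 2.24 in W8 and 2.34 in W11. It was highest in the W0 library. Its fall of 1.04 at W8 passed the threshold, and its difference at W11 stopped just short of it. The W8 call was lost in 4 of 10 alternatives, the smallest difference being -0.15 on the deposited length-scaled values. Those were 0.25 in W0 and 0.1 in W8, and with 1 added to each a 2-fold fall was out of reach. The same damping bears on the tallies of Nlrp3, Nlrp10 and Irak3 below.

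All 6 endosomal receptors had their highest CPM at W5, although Tlr9 differed there from W0 by 0.12 on the log2 scale, close to the 0.11 of the median gene. Tlr7 and Tlr8, which sense single-stranded RNA, and Tlr13, which senses bacterial ribosomal RNA in mice, rose there. Tlr13 had 6.82 CPM in W0, 6.63 in W2, 18.7 in W5, 11.1 in W8 and 7.43 in W11. Tlr7 had 2.25 CPM in W0, 2.32 in W2, 8.34 in W5, 2.54 in W8 and 2.81 in W11, so W5 stood alone and the other 4 libraries lay together. Tlr8 had 1.38 CPM in W0, 0.615 in W2, 4.71 in W5, 2.61 in W8 and 1.14 in W11, from between 9 and 96 reads.

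The W5 ratios against W0 were 2.75 for Tlr13 (interval 2.19 to 3.48), 3.71 for Tlr7 (2.52 to 5.63) and 3.42 for Tlr8 (2.07 to 5.92). Tlr3 (double-stranded RNA), Tlr9 (DNA) and Tlr12 (the protein profilin of parasites) did not reach 2-fold against W0. The median difference of the 6 genes was 0.98 at W5, 0.03 at W8 and -0.47 at W11. Transcripts poor in G and C were shifted upwards in the W5 library as a whole. With all genes split into 10 equal groups by GC content, the median difference was 0.45 in the lowest group and -0.21 in the highest. Tlr3, Tlr7 and Tlr8 are in the lowest group, as is the surface receptor Tlr4, and Tlr13 is in the next. With each gene set against the median of its own GC group, Tlr7 still rose at W5, and the differences of Tlr8 and Tlr13 were under 2-fold.

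Neighbouring libraries were compared in the same way. Against W2, 6 members were 2-fold higher at W5 (Tlr3, Tlr7, Tlr8, Tlr12, Tlr13 and Clec7a), 14.3% of the members against 9.44% of all genes tested, and none was lower, against 4.46%. At W8 none was higher than at W5, against 4.78% of all genes, and 4 were lower (Tlr7, Tlr12, Nlrp6 and Casp1), 9.52% against 3.6%. At W11 none was higher than at W8, against 3.4% of all genes, and 6 were lower (Tlr2, Tlr6, Nlrp10, Nod1, Nod2 and Irak3), 14.3% against 11.9%.

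Levels of different genes were set side by side on the deposited length-scaled values (RPKM, reads scaled by gene length and library size). Which gene lengths lie behind those values is not stated. Among 31 members with at least 0.5 RPKM in W0, CPM divided by RPKM and by the kilobases of exon in GENCODE M21 ranged between 2.08 and 8.30, where equal lengths would give 1 value. An order between genes is therefore given below only together with that on the M21 lengths, an alternative chosen after seeing the data. On the deposited values, the 11 Toll-like receptors summed to 13.96 in W0, 14.22 in W2, 25.14 in W5, 20.80 in W8 and 11.48 in W11. Tlr1 made up 42.0% of that sum in W0, 41.1% in W2, 23.5% in W5, 18.0% in W8 and 23.9% in W11. Tlr2 made up 19.4% in W0, 28.1% in W2, 34.4% in W5, 52.9% in W8 and 43.3% in W11. With M21 lengths the share of Tlr1 was 50.7% in W0, 51.3% in W2, 31.3% in W5, 26.1% in W8 and 33.0% in W11, and that of Tlr2 was 12.7%, 19.0%, 24.9%, 41.6% and 32.6% in the same order. On both scales Tlr1 led in W0 and W2 and Tlr2 led in W8, while the leading receptor of W5 and W11 depended on the lengths.

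**Figure D2:**
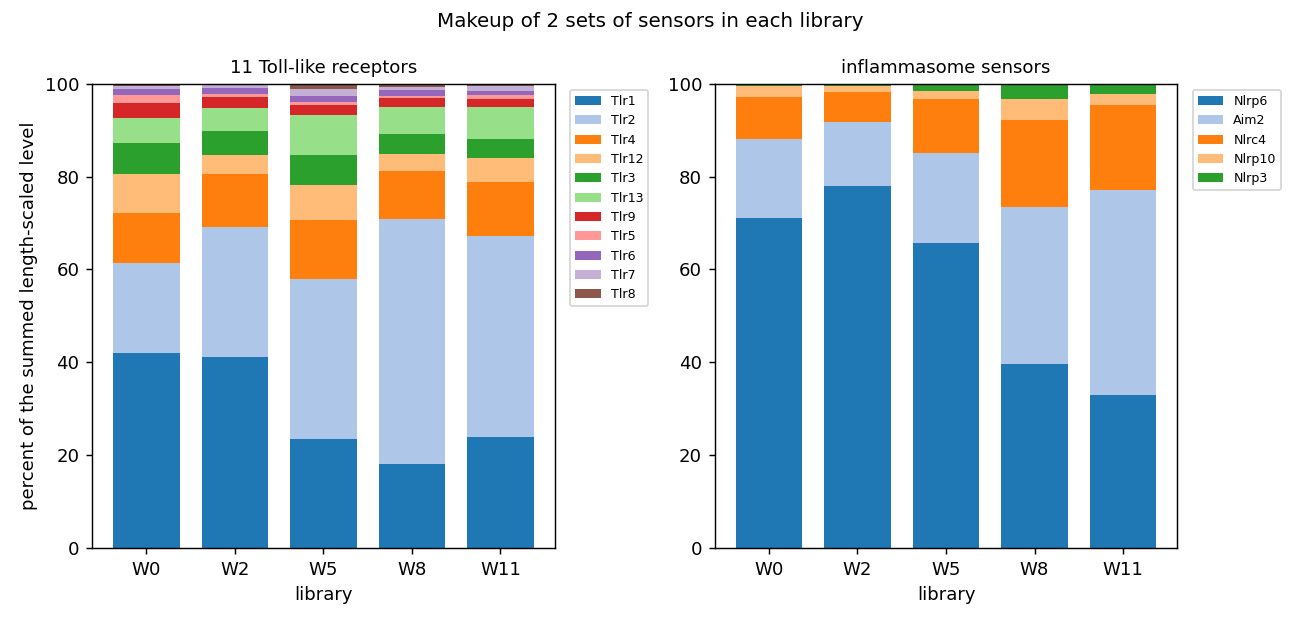
Share of each gene in the summed deposited length-scaled level (RPKM, percent, vertical axis) in each library (horizontal axis), for the 11 Toll-like receptors on the left and the 5 inflammasome sensors on the right. Tlr2 takes 52.9% of the receptor sum at W8, and Nlrp6 takes 33.0% of the sensor sum at W11 and 71.1% at W0.

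The co-receptors that hand lipopolysaccharide to Tlr4 are Cd14 and Ly96 (MD-2). Cd14 had the highest length-scaled level of the 2 and lay at 91.3 CPM in W0, 108 in W2, 119 in W5, 137 in W8 and 121 in W11, with no 2-fold difference. Ly96 was measured at 4.14 CPM in W0, 7.17 in W2, 9.91 in W5, 6.72 in W8 and 7.29 in W11. Both were lowest in the W0 library. The Ly96 rise at W5 was 1.09 on the log2 scale and lay close to the threshold: it was lost in 7 of 11 alternatives. Ly96 is also in the lowest GC group.

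Of the adaptors that carry a TIR domain, none changed. Ticam1 (TRIF), which serves Tlr3 and Tlr4, had the highest length-scaled level and lay at 43.1 CPM in W0, 39.7 in W2, 58.1 in W5, 41.8 in W8 and 23.8 in W11. Tirap lay between 15.3 and 32.4 CPM and Ticam2 between 1.38 and 3.21 CPM. Myd88 is listed at 0 in all 5 libraries, where a count of 0 allows up to 0.224 CPM per library. In the mouse annotation 11.3% of its exonic bases are shared with the neighbouring gene Acaa1a. A value of 0 for a gene this widely used is not read as absence, and its cause was not tested.

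Among the kinases next to the receptors, Ripk3 rose. Ripk3, which drives necroptosis, was measured at 33.6 CPM in W0, 48.4 in W2, 67.1 in W5, 78.7 in W8 and 54.3 in W11. All 4 later libraries were above W0, and the W8 ratio was 2.34 (interval 2.10 to 2.62). Against W2 the W8 difference was 0.69 on the log2 scale, under 2-fold. The others did not change: Irak1 lay between 94.4 and 126 CPM, Irak4 between 34.3 and 47.4, Irak2 between 20.5 and 38.0, and Ripk2, the kinase of the NOD receptors, between 6.62 and 11.8 CPM.

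Of the genes that restrain Toll-like receptor signalling, Irak3 (IRAK-M), an inactive member of the kinase family, fell at W11. It had 8.78 CPM in W0, 6.90 in W2, 11.8 in W5, 10.5 in W8 and 3.68 in W11, so W11 was the lowest. The fall was 1.06 on the log2 scale against W0 and was lost in 7 of 11 alternatives. Against W8 it was 2.84-fold lower (interval 2.07 to 3.96). Tollip, which binds the IRAK kinases, stayed at 53.6 CPM in W0, 54.2 in W2, 69.9 in W5, 76.7 in W8 and 49.4 in W11. Sigirr, a membrane protein that blocks the pathway, lay between 32.2 and 43.8 CPM.

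The NOD sensors detect fragments of bacterial peptidoglycan. Nod1 fell at W11: it was measured at 45.3 CPM in W0, 49.997 in W2, 35.2 in W5, 31.4 in W8 and 13.2 in W11. At W11 it was 3.44-fold lower than at W0 (interval 2.92 to 4.05), and the fall was past 2-fold in all 11 alternatives. Nod2 was measured at 6.53 CPM in W0, 6.35 in W2, 11.1 in W5, 12.7 in W8 and 4.62 in W11, with no 2-fold difference from W0. Reads of Nod2 for each read of Nod1 numbered 0.144 in W0 (interval 0.114 to 0.180), 0.127 in W2, 0.316 in W5, 0.404 in W8 and 0.350 in W11 (0.262 to 0.463). The 3 libraries with DSS were thus above both others, with intervals that did not overlap theirs.

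Among the inflammasome sensors, Nlrp6 fell furthest and Nlrp3 rose. Nlrp6, a sensor known for its role in colonic epithelium, was measured at 276.6 CPM in W0, 320.2 in W2, 256.9 in W5, 96.0 in W8 and 53.9 in W11. The first 3 libraries lay well above the last 2. At W8 it was 2.88-fold lower than at W0 (interval 2.70 to 3.07), at W11 5.13-fold lower (4.75 to 5.54), and both falls were past 2-fold in all 11 alternatives.

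Nlrp3, which answers to many danger signals, was low at 1.52 CPM in W0, 1.78 in W2, 4.17 in W5, 5.83 in W8 and 2.61 in W11, from between 21 and 85 reads. Its W8 ratio was 3.82 (interval 2.34 to 6.52). The W5 rise of 1.03 on the log2 scale was lost in 7 of 10 alternatives, and the W8 rise of 1.44 in 2 of 10. For each read of Nlrp6 there were 0.00551 reads of Nlrp3 in W0, 0.00555 in W2, 0.0162 in W5, 0.0607 in W8 and 0.0484 in W11.

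Nlrp10 fell at W11: it had 5.95 CPM in W0, 3.01 in W2, 4.32 in W5, 6.65 in W8 and 2.41 in W11. W2 and W11 were the low libraries, and the fall of 1.03 was lost in 7 of 10 alternatives. Nlrc4, which answers to flagellin through its NAIP partners, lay between 28.3 and 48.9 CPM, and Aim2, a sensor of cytosolic DNA, between 43.4 and 61.8 CPM, both with no 2-fold difference.

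The summed length-scaled level of the 5 inflammasome sensors was 26.05 in W0, 26.45 in W2, 27.71 in W5, 16.26 in W8 and 10.83 in W11. Nlrp6 held 71.1% of it in W0, 77.9% in W2, 65.7% in W5, 39.7% in W8 and 33.0% in W11. Aim2 held 17.0% in W0, 13.9% in W2, 19.5% in W5, 33.6% in W8 and 44.1% in W11. On these values, and also with M21 lengths, Aim2 was the leading sensor at W11 and Nlrp6 in the other 4 libraries. With M21 lengths their shares were 45.9% and 31.1% at W11, and 35.6% and 38.1% at W8. This order changed although the level of Aim2 itself had not changed 2-fold.

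The other NLR proteins, Nlrc3 and Nlrx1, are known as dampers of innate signalling. Nlrx1, a mitochondrial protein with the higher length-scaled level, was measured at 43.0 CPM in W0, 28.7 in W2, 37.3 in W5, 31.7 in W8 and 20.5 in W11. It was highest at W0, and its fall of 1.03 at W11 was lost in 7 of 11 alternatives. Nlrc3 lay between 0.803 and 2.54 CPM and was also lowest at W11, with 12 reads there and 35 in W0. Its CPM at W11 was 3.16-fold lower than at W0 (interval 1.60 to 6.69). On the log2(CPM + 1) scale that difference was -0.97, just short of the threshold.

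The adaptor ASC is encoded by Pycard, which had the highest length-scaled level of all 42 genes at W11 and at W0, on the deposited values and with M21 lengths. Its levels were 376 CPM in W0, 458 in W2, 411 in W5, 248 in W8 and 424 in W11, with no 2-fold difference and the lowest value at W8. Pycard reads for each Nlrp6 read numbered 1.36 in W0 (interval 1.31 to 1.42), 1.43 in W2, 1.60 in W5, 2.59 in W8 and 7.85 in W11 (7.30 to 8.46).

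Casp1, the caspase that inflammasomes activate, rose in the W5 library. It was measured at 135 CPM in W0, 152 in W2, 300.5 in W5, 132.5 in W8 and 116 in W11. W5 alone stood out, at 2.22 times the W0 level (interval 2.11 to 2.34), and at W8 the level was 2.27-fold lower than at W5. Casp1 is in the lowest GC group too. Set against that group, its W5 difference was 0.70, and against W2 it was also under 2-fold.

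Casp4 encodes caspase-11 of the mouse, which binds lipopolysaccharide in the cytosol. It had 20.2 CPM in W0, 31.4 in W2, 33.0 in W5, 35.2 in W8 and 55.4 in W11. Every later library was above W0, and W11 was highest, at 2.75 times W0 (interval 2.39 to 3.16). With W2 as the baseline that difference was 0.80 on the log2 scale, under 2-fold. Reads of Casp4 for each read of Casp1 numbered 0.149 in W0 (interval 0.131 to 0.169), 0.206 in W2, 0.110 in W5, 0.266 in W8 and 0.478 in W11 (0.439 to 0.519). The lowest of these ratios, at W5, was in the library where Casp1 was highest.

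Gsdmd, the pore-forming gasdermin, and Casp8, the caspase of death receptors, did not change. Gsdmd lay between 162 and 242 CPM and Casp8 between 127 and 170 CPM. For each Casp1 read there were 1.51 Gsdmd reads in W0, 1.33 in W2, 0.538 in W5, 1.83 in W8 and 1.95 in W11. The W5 ratio was the lowest of the 5. It was 0.760 on the RPKM scale and 0.339 with M21 lengths. At W8 and W11 the ratio exceeded 1 on both scales. At W0 and W2 it exceeded 1 on the RPKM scale but not with M21 lengths.

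**Figure D3:**
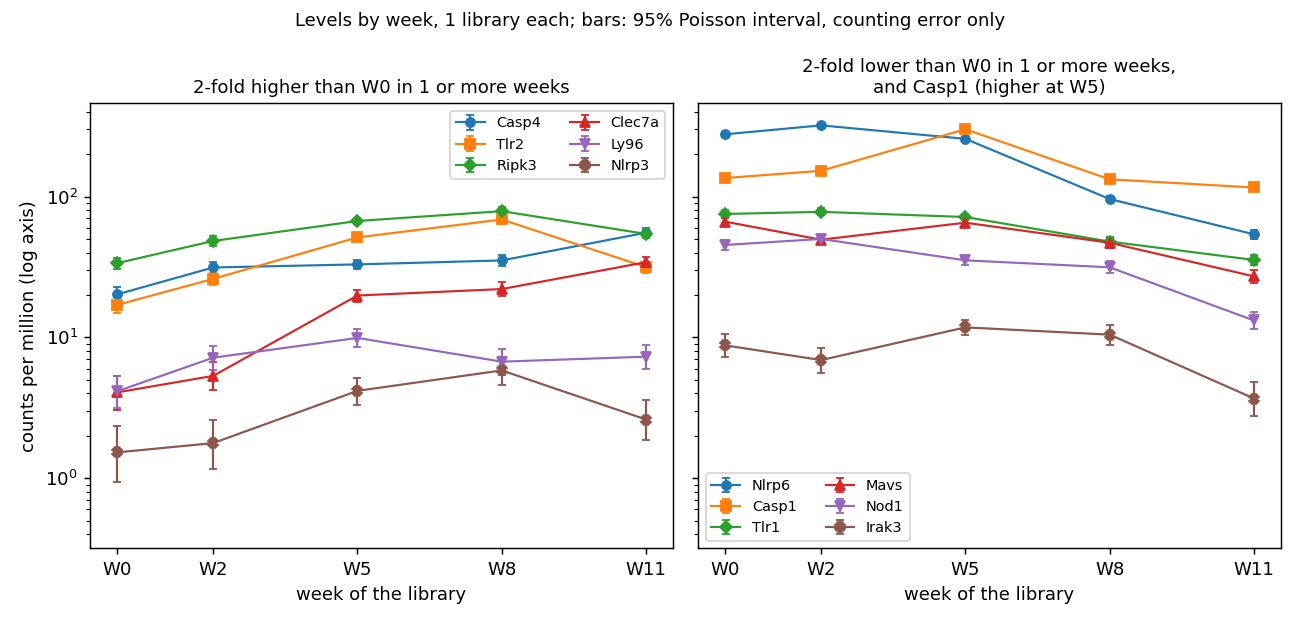
CPM (log axis) by week of the library, 1 library each, with 95% Poisson intervals for counting error only. On the left are 6 genes that were 2-fold higher than W0 in at least 1 week, with Clec7a ending at 34.2 CPM. On the right are Nlrp6, Tlr1, Mavs, Nod1 and Irak3, which ended lowest at W11, and Casp1, which stood at 300.5 CPM at W5.

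Clec7a encodes Dectin-1, a receptor for fungal beta-glucan on myeloid cells, and had the largest rise of the 42 genes. It was measured at 4.06 CPM in W0, 5.33 in W2, 19.8 in W5, 22.0 in W8 and 34.2 in W11. The W0 and W2 libraries were low and the 3 libraries with DSS high. The ratio to W0 was 4.88 in W5, 5.42 in W8 and 8.41 in W11 (interval 6.38 to 11.3), and each was past 2-fold in all 11 alternatives, the setting of Clec7a against its own lowest GC group included. Card9, the adaptor that acts below Dectin-1, had 0 reads in W0, 11 in W2, 8 in W5, 7 in W8 and 8 in W11. Those are levels of at most 0.751 CPM, too low to compare.

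Mavs, the mitochondrial adaptor of the RNA helicases RIG-I and MDA5, fell at W11. It had 66.4 CPM in W0, 49.4 in W2, 65.2 in W5, 47.0 in W8 and 27.1 in W11. W11 was lowest, 2.45-fold lower than W0 (interval 2.18 to 2.76). The difference was -0.84 with W2 as the baseline, which ends the call.

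**Figure D4:**
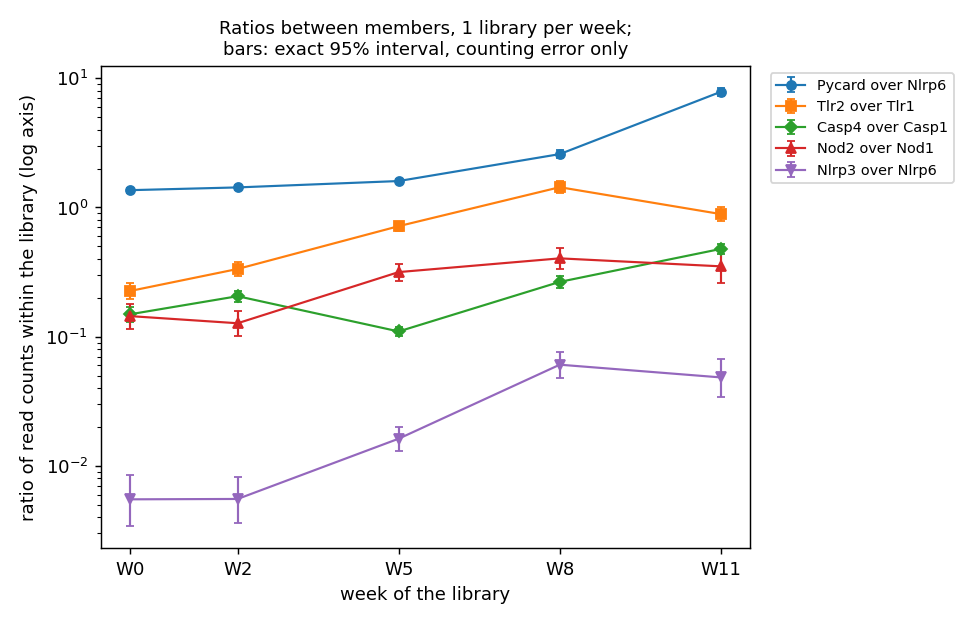
Ratio of read counts between pairs of genes within each library (log axis) by week, with exact 95% intervals for counting error only. Pycard over Nlrp6 ends at 7.85 at W11, and Tlr2 over Tlr1 is highest at W8, where it is 1.44. Counts are not scaled by gene length.

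The order of length-scaled levels also shifted. Among the 42 genes, Nlrp6 held rank 14 at W11 and rank 3 at W0, with 3.57 and 18.5 RPKM, and ranks 12 and 4 with M21 lengths. Casp4 held rank 6 at W11 and 21 at W0, with 5.43 and 2.00 RPKM, and ranks 9 and 21 with M21 lengths. Clec7a held rank 10 at W11 and 31 at W0, with 4.65 and 0.56 RPKM, and ranks 11 and 30 with M21 lengths. Casp1, whose M21 length differed most from the deposited scale, held rank 5 at W11 and 6 at W0 on the RPKM scale, and 3 and 2 with M21 lengths. Neighbouring ranks such as Cd14 and Casp8 at W0, with 17.5 and 17.1 RPKM, are too close to be ordered from 1 library each.

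Genes further along the same pathways were followed as lists. Their counts stand beside the shares of all genes tested given above: 6.63% had risen and 1.87% had fallen in W5, 7.79% had risen and 3.85% had fallen in W8, and 11.3% had risen and 16.9% had fallen in W11. Of 19 NF-kB and IRF signalling genes, none had risen or fallen at W5 or W8. At W11 Tab2, which links TRAF6 to the kinase TAK1, had fallen by 1.15 on the log2 scale, with 56.1 CPM at W11 and 125 CPM at W0. That is 5.26% of the list, below the 16.9% of all genes tested. The largest other differences at W11 were -0.96 for Traf3, -0.79 for Traf6 and -0.72 for Tbk1, all under 2-fold. The list median was 0.07 in W5, 0.27 in W8 and -0.24 in W11.

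Among 8 feedback inhibitors of NF-kB, Zc3h12a (Regnase-1), which degrades inflammatory mRNAs, stood above W0 by 1.08 (W5) and 1.35 (W8) on the log2 scale. At W11 Tnfaip3 (A20) had fallen by 1.21 and its partner Tnip1 by 1.13. Nfkbia (IkB alpha) lay 0.92 above W0 at W11, under 2-fold. The W2 value of Nfkbia, 180 CPM against 89.4 CPM in W0, had passed 2-fold. In W5 and again in W8, 1 gene of the list had risen and 0 had fallen, whereas in W11 the list held 0 rises and 2 falls. The list median was 0.66 in W5, 0.36 in W8 and 0.29 in W11.

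The list of cytosolic nucleic acid sensors held 7 genes. Sting1, the adaptor activated by the DNA sensor cGAS, had the largest rise: it was measured at 24.7 CPM in W0, 30.3 in W2, 71.9 in W5, 139.7 in W8 and 117.7 in W11. The 3 libraries with DSS stood above both others, by 1.51, 2.45 and 2.21 on the log2 scale against W0. Ifih1 (MDA5), an RNA sensor upstream of Mavs, had fallen by 1.73 at W11, and Trim25, which activates RIG-I, by 1.39. Ddx58 (RIG-I) lay 0.91 above W0 at W8. The list median was 0.61 in W5, 0.10 in W8 and -0.50 in W11.

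Of 7 genes for inflammasome substrates and the proteins that bind them, Il1b and Il1r2 had risen at W5, W8 and W11, and none had fallen. Il1b, the cytokine that caspase-1 matures, had 6.97 CPM in W0, 5.40 in W2, 31.5 in W5, 48.7 in W8 and 35.7 in W11. Il1r2, its decoy receptor, lay above W0 by 1.67, 2.31 and 2.10 on the log2 scale in the 3 libraries with DSS. Il18bp, which neutralises interleukin-18, had risen only at W2, with 38.7 CPM there and 6.31 CPM at W0. Il1r1 lay 0.75 above W0 at W8. The list median was 0.87 in W5, 0.75 in W8 and 0.45 in W11.

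A list of 12 held other C-type lectin and scavenger receptors together with Syk, Bcl10 and Malt1, which signal below such receptors. At W5, 5 had risen and 0 had fallen, at W8 the numbers were 4 and 0, and at W11 they were 5 and 1. The rises were 41.7% of the list at W5, against 6.63% of all genes tested, 33.3% at W8, against 7.79%, and 41.7% at W11, against 11.3%. All of them were of C-type lectin genes (Clec4a2, Clec4d, Clec4e, Clec4n and Clec5a). Clec10a, also a C-type lectin, stayed under 2-fold in these weeks, as did the scavenger receptors Marco, Msr1 and Cd36. The difference of Clec10a went furthest in W8, to -0.70 on the log2 scale. Clec4n (Dectin-2), with 11.9 CPM in W0, 6.22 in W2, 31.3 in W5, 44.9 in W8 and 55.2 in W11, stood above W0 by 2.12 on the log2 scale at W11. Clec4d and Clec4e (Mincle) stood 2.75 and 1.77 above W0 at W11, and Clec5a 1.82. The 1 fall at W11 was that of Syk, a kinase used by several of these receptors, by 1.24 on the log2 scale. The list median was 0.63 in W5, 0.60 in W8 and 0.35 in W11.

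Markers of immune and stromal cells moved in the same libraries, and their part in the results above was not tested. The summed level of 12 macrophage markers was 1147 CPM in W0, 753 in W2, 1805 in W5, 1874 in W8 and 1863 in W11. Lyz2 and the genes C1qa, C1qb and C1qc carried that sum: these 4 summed to 1682 CPM at W11 and 862 CPM at W0, and the other 8 markers to 181 CPM at W11 and 285 CPM at W0. The list median was 0.61 in W5, 0.47 in W8 and 0.01 in W11, where 6 of the 12 markers lay below W0. Within that list 4 markers had fallen at W2, only C1qb had risen at W5 and none at W8, and at W11 C1qa had risen while Mertk and Cd163 had fallen by 1.60 and 2.55 on the log2 scale. The 9 neutrophil markers summed to 115 CPM in W0, 141 in W2, 199 in W5, 289 in W8 and 272 in W11. Of the W0 sum, 109.8 CPM came from Ly6g, while Mmp8 and Ngp were at 0 in W0 and W2. Ly6g had 79.1 CPM at W11, and the other 8 markers summed to 193 CPM at W11 and 5.23 CPM at W0. S100a8 had 0.581 CPM in W0, 0 in W2, 14.3 in W5, 68.5 in W8 and 65.8 in W11. Of the 9, the numbers that had risen were 6 at W5, 6 at W8 and 4 at W11. These are 66.7%, 66.7% and 44.4% of the list.

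The 10 fibroblast markers summed to 2843 CPM in W0, 1932 in W2, 5372 in W5, 4640 in W8 and 2526 in W11, and the 7 dendritic cell markers to 35.8, 34.8, 59.7, 52.7 and 41.8 CPM in the same order. Col3a1 gave 914 CPM of the fibroblast sum at W0 and 2540 CPM at W5. The median difference of the fibroblast markers from W0 was 0.68 in W5, 0.60 in W8 and -0.25 in W11. The 10 T cell markers lay between 43.0 and 80.5 CPM, the 9 B cell markers between 71.3 CPM at W8 and 226 CPM at W2, and the 10 endothelial markers between 239 and 423 CPM. The 10 epithelial markers summed to 17540 CPM at W11 and 25743 CPM at W0, with Cdh1 and Krt20 having fallen at W11. The epithelial sum at W11 was 0.681 of that at W0, and Krt8 and Krt19 made up 12305 CPM of it at W11 and 19366 CPM at W0.

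**Figure D5:**
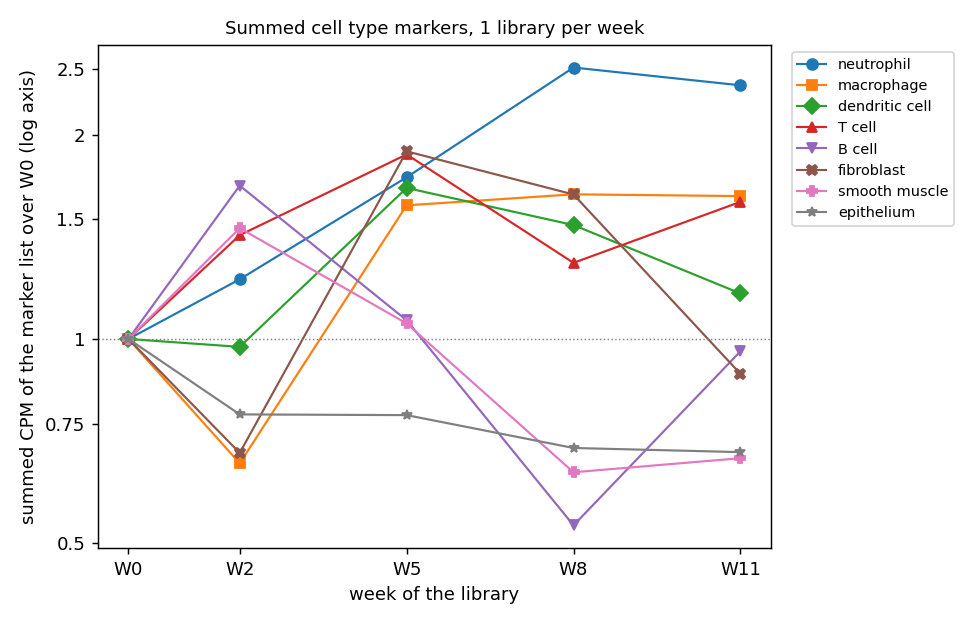
Summed CPM of each cell type marker list over its W0 value (log axis) by week of the library, 1 library each. The neutrophil list ends at 2.36 times W0, and its 8 markers other than Ly6g summed to 193 CPM at W11 and 5.23 CPM at W0. The macrophage list ends at 1.62 times W0, of which Lyz2 and the C1q genes hold most. Its other 8 markers summed to less at W11 than at W0. The epithelial and smooth muscle lists end at 0.681 and 0.667.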

How the data were processed

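RNA sequencing of 5 mouse colon libraries, 1 per week, was analysed. Per the labels' protocols, the tissue was extracted in TRIzol and made into TruSeq libraries. Per the submitters' processing notes, the tools were featureCounts, FastQC and HISAT2 2.2.1. The notes list GRCm38, GRCm39 and mm39 with no roles, so no coordinates of the files are printed. In the authors' deposited table, whole-number counts of reads stand under the TPM headers. RPKM-like values stand under the authors' count headers, so the headers were taken as exchanged. In 2620 of 2620 genes above 5 RPKM in every library the kinds of column kept 1 ratio within 2%.

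Counts were divided by the library total to give CPM. Differences are log2(CPM + 1), a change is 2-fold or more, and no floor enters them. A count of 0 allows up to 3 reads, which is 0.147 to 0.224 CPM per library. Intervals are exact (Clopper-Pearson, 95%) or Poisson and cover counting error only. No test across weeks was possible with 1 library each. The gene members, lists, roles and rules were chosen with earlier results of these data known. Values in every library are given for the changed members and for the member with the highest mean RPKM of each role; Tlr4, Nod2 and the ratios were chosen after their values were seen. From each further pathway list up to 4 genes with the largest differences at W8 or W11 are named, plus single genes where a count needed them. Myd88 and Card9 did not reach a mean of 1 CPM. GC content (the longest transcript), exonic and shared bases came from GENCODE M21, in which 11 of the 42 members shared exonic bases with another gene and 0 shared over 20%. Calling was checked on simulated counts with Poisson error only, which hold no variation between mice and cannot stand in for replicates. The tools were scipy 1.17.1, numpy 2.4.6, matplotlib 3.10.9 and pandas 2.3.3 under Python 3.11.15.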

Additional observations from a re-analysis of the deposited data

How the results depend on the processing

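No paired analysis was possible because each week has 1 library, and leaving out a replicate was not possible for the same reason. Of the values of single members under the alternatives, 1414 moved by less than their counting interval and 298 by more, and none that was called changed sign. The 1414 include values that could not move. These are the values under the filters on mean CPM and those of Myd88, which had no reads. The tally therefore overstates how stable the members were. Over the alternatives the members' median difference lay between 0.20 and 0.38 at W5, between 0.10 and 0.24 at W8, and between -0.22 and 0.00 at W11. The members 2-fold higher at W5 numbered 8 in the report (6.63% of all genes tested). They numbered 4 with a pseudocount of 5 CPM (3.04% of all genes tested) and 3 on the deposited length-scaled values (3.28%). Among members with a mean of at least 5 CPM they numbered 5. When centred within 10 groups by GC content they numbered 4 (4.83%), and with a pseudocount of 0.1 CPM they numbered 10 (9.57%). The members higher at W2 numbered 1 and those lower 2 with a pseudocount of 0.1 CPM, against 0 and 0 in the report. Of all genes tested, 5.88% were higher and 6.43% lower in that setting. The members lower at W8 numbered 2 in the report (3.85% of all genes tested). They numbered 1 with a pseudocount of 5 CPM (1.88% of all genes tested) and on the length-scaled values (1.54%). With W2 (5.56%), or the averaged W0 and W2 (4.15%), as the baseline they numbered 1, as they did at a mean of at least 5 CPM. The members lower at W11 numbered 7 in the report (16.9% of all genes tested). They numbered 3 with a pseudocount of 5 CPM (10.6% of all genes tested), with median-of-ratios scaling (11.6%) and on the length-scaled values (5.79%). When centred on all genes (12.7%) or within GC groups (12.5%) they also numbered 3. With W2 (13.4%), or the averaged W0 and W2 (15.0%), as the baseline they numbered 4. They numbered 10 with a pseudocount of 0.1 CPM (20.3%) and 9 with the total without abundant genes (16.6%). The members higher at W11 numbered 1 with W2 as the baseline (9.25% of all genes tested), against 2 in the report (11.3%). They numbered 3 with median-of-ratios scaling (15.6%), when centred, or with a pseudocount of 0.1 CPM (13.7%). With centring the share of all genes tested was 14.1% on all genes and 14.2% within GC groups. On the length-scaled values 1 was added to each value as well, which damps the differences of genes far below 1 RPKM. Otherwise the cause of these moves was not tested. Both forms of centring and the M21 lengths were chosen after seeing the data. Over all genes the share of rises among changed genes was 78.0% at W5 and 66.9% at W8, and with centring 65.2% and 56.2%. Among the members that changed, low counts limit Tlr5, Tlr7, Tlr8, Nlrp3 and Nlrp10 most. Of those that did not change, Tlr6, Tlr9, Nlrc3, Ticam2 and Card9 also had few reads.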
